A study of Mus musculus with 9 samples.

Results

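The genes described here encode the proteins of the mitochondrial ribosome. They were taken from the 12849 genes of the deposited log2 CPM table (CPM, read counts scaled to library size) by name, as every symbol that starts with Mrpl or Mrps followed by a number, without regard to any measured difference. The rule finds 77 genes, of which 48 are named Mrpl, for the large subunit, and 29 Mrps, for the small subunit. The full count table of 55536 genes holds 83 names of this pattern. The other 6 did not pass the authors' filter on low counts and were not tested: the pseudogenes Mrpl23-ps1, Mrpl48-ps, Mrps36-ps1, Mrps36-ps2 and Mrps36-ps3, and the protein-coding gene Mrpl53.

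RNA was sequenced from B cells of the mouse spleen that the labels call pre-GC, a stage before the germinal centre. There were 5 libraries of the genotype p52Ki, whose titles read p52ki/ki, as a homozygous knock-in is written, and 4 libraries of the genotype WT. The p52 protein is the NF-kB subunit made from Nfkb2. The sources used here do not give the design of the knock-in allele or the strain, age and treatment of the mice. No label ties a library to a mouse, so a p-value reflects the spread among the libraries as deposited, part of which may be technical.

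Mitochondria keep a small genome that encodes proteins of the respiratory chain, and they translate its mRNAs on ribosomes of their own. The 2 ribosomal RNAs of that particle are transcribed inside the mitochondrion, while all its proteins are encoded in the nucleus, made in the cytosol and imported. Many of these proteins descend from those of bacterial ribosomes, and others were added during the evolution of mitochondria. Activated B cells enlarge, divide and build mitochondria on their way into and through the germinal centre reaction.

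The promoters of 68 of the 77 genes were matched by symbol in a RefSeq table on build GRCm38.p6, and 4 are shown because the results below turn on these genes: Mrps7, the gene that passed the test, Mrpl3 and Mrpl43, the Mrpl genes of smallest p in each direction, and Mrps11, whose start site lies 412 bases from that of Mrpl46. Each run is the 250 bases before the RefSeq start site, 5′ to 3′ on the strand of the gene, at chr11:115603890-115604139 (plus strand) for Mrps7, chr9:105053018-105053267 (plus strand) for Mrpl3, chr19:45006443-45006692 (minus strand) for Mrpl43 and chr7:78782881-78783130 (plus strand) for Mrps11. Capitals mark matches, on either strand, to 5 motifs that were searched: the core of ETS factor sites CCGGAAG, the NRF1 motif (GCGCA, any base, GCGC), the YY1 motif AAGATGGCG, the E-box CACGTG and the NF-kB motif (GGGA, any 4 bases, CC).
Mrps7: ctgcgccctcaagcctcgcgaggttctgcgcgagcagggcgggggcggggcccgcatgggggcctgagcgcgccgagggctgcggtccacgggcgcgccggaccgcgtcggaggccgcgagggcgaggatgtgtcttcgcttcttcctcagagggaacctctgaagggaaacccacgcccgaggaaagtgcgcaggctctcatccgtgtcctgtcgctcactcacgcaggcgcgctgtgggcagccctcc
Mrpl3: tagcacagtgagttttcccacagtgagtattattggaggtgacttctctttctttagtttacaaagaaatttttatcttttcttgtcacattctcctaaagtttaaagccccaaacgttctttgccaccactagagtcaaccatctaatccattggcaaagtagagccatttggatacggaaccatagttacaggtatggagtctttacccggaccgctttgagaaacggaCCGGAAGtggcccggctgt
Mrpl43: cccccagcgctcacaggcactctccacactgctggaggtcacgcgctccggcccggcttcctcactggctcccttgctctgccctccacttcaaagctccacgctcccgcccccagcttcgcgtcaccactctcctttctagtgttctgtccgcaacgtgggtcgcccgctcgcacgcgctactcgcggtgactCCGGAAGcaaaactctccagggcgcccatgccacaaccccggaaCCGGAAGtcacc
Mrps11: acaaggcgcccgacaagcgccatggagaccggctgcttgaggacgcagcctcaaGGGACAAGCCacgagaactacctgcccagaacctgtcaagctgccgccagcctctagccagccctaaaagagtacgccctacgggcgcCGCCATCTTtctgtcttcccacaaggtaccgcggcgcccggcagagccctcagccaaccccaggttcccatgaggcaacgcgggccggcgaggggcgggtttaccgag

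The RefSeq start sites lie downstream of the GENCODE gene starts for 3 of these genes, so that 215 of the 250 bases of Mrps7, 29 of Mrpl3 and 12 of Mrps11 are inside the gene as GENCODE M21 gives it, and the run of Mrps7 is for the most part not upstream of that start. The runs also overlap genes on the opposite strand. That of Mrpl43 lies wholly inside Twnk and that of Mrps11 wholly inside Mrpl46, while part of that of Mrps7 lies inside Gga3. In the 250 bases of Mrps7 none of the 5 motifs was found. Mrpl3 held 1 ETS core, whose first base lies at position -19 from the start site, and Mrpl43 held 2, at -56 and -12. The capitals of Mrps11 are 1 NF-kB match and, on the opposite strand, 1 YY1 match. Over windows of 300 bases, 250 before and 50 after the start, the ETS core was present in 25 of 74 windows of these genes (33.8%), against 19.3% of the 11079 windows of genes tested and 8.86% of all 32851 windows in the table. By subunit it was in 29.8% of Mrpl and 40.7% of Mrps windows. The NRF1 motif, bound by a factor known for its control of nuclear genes of mitochondrial function, was in 17.6% of their windows, against 10.6% of windows of genes tested. The YY1 motif was in 10.8%, against 3.29%. The E-box was in 9.46%, against 10.2%, and the NF-kB motif in 18.9%, against 25.7%. In these windows there were 75 matches in all, and 1 pair of matches to different motifs overlapped. A match is a description of letters and not a measurement of binding. The 25 genes with an ETS core had a median log2 fold change (p52Ki over WT) of 0.11 with 0 called, and the 43 genes without it a median of -0.01 with 1 called.

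Few mitochondrial ribosomal protein genes differed between the genotypes beyond the spread of the libraries. Of the 77 genes, 1 passed the threshold of an adjusted p of 0.05 (edgeR quasi-likelihood test, Benjamini-Hochberg over 12849 genes), which is 1.30%, against 8.53% of all genes tested (1096 of 12849). That gene was Mrps7, which fell in p52Ki. No gene of the 77 was called higher, against 4.49% of all genes, and the share called lower among all genes was 4.04%. Among the 48 Mrpl genes 0 were called. At an unadjusted p under 0.05, 1 of them was higher and 3 lower, and the count of calls was also 0 with DESeq2 and with limma-voom. Among the 29 Mrps genes 1 was called lower, and 2 were lower and 0 higher at an unadjusted p under 0.05. Over all 77 genes the unadjusted share was 7.79%, against 21.4% of all genes (10.8% higher and 10.6% lower).

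Estimated differences were centred near 0 in both subunits. The median log2 fold change was -0.03 over the Mrpl genes and 0.09 over the Mrps genes, beside 0.03 over all genes tested. 39 of the 77 genes had a fold change above 0 and 38 below 0, and the middle of the distribution ran from -0.23 to 0.18, against -0.39 to 0.53 for all genes (25th and 75th percentiles). 1 of the 77, Mrps6, had an estimated difference beyond 2-fold (1.30%), against 20.4% of all genes and 15.7% of genes in the same range of level. For 52 of the 77 genes (67.5%; 36 Mrpl and 16 Mrps) the 95% interval of the log2 fold change lay wholly within -1 and 1, so that a change of 2-fold or more in either direction is outside the interval. The same was true of 34.4% of the 8832 genes whose mean level falls in the same range, 6.72 to 173 CPM, among which 8.0% were called. The remaining 25 intervals reached a 2-fold change in at least 1 direction, and for those genes these libraries do not bound the difference that closely.

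**Figure D1:**
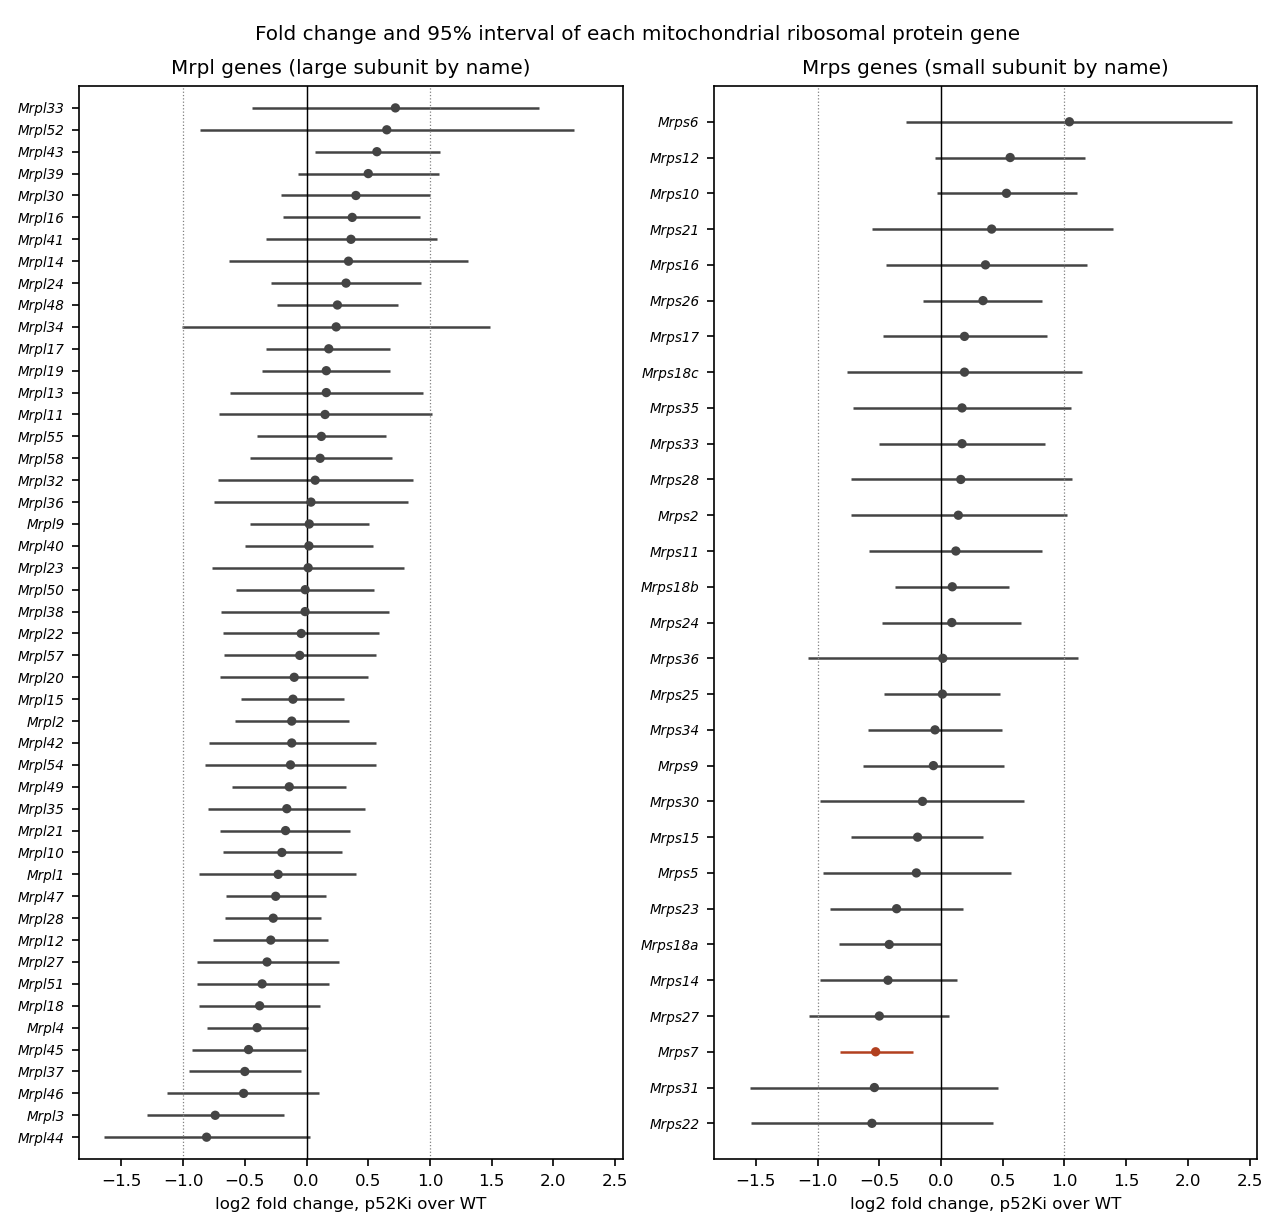
Log2 fold change (p52Ki over WT, x axis) of each of the 48 Mrpl genes (left) and 29 Mrps genes (right), with its 95% interval as a line and the 2-fold limits dotted. Mrps7, in red, is the 1 gene with an adjusted p under 0.05, and 52 of the 77 intervals lie within the dotted lines.

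The 9 libraries held 4492160 to 6647650 counts in p52Ki and 7368604 to 7937579 in WT, and 15504 to 16634 genes were detected in p52Ki libraries, against 14033 to 14793 in WT. Levels below are CPM on library sizes scaled by TMM. Nfkb2 itself was at 208 ± 40.9 CPM in p52Ki and 136 ± 34.0 CPM in WT (SD, n = 5 and 4; edgeR adjusted p = 0.0987), and counts per gene do not check the altered allele. The 4 B cell markers Ms4a1, Cd79a, Cd79b and Pax5 were abundant in every library and summed to 7157 to 10060 CPM in p52Ki and 6181 to 7262 CPM in WT. All 4 had estimates above 0. Cd79a was called higher, at 2829 ± 419 CPM in p52Ki and 1569 ± 315 CPM in WT (edgeR adjusted p = 0.00906). Ms4a1, Cd79b and Pax5 did not pass (edgeR adjusted p = 0.385, 0.115 and 0.150). The defining markers of T cells and NK cells were at or near 0, with sums of at most 16.6 and 20.5 CPM in p52Ki and at most 8.53 and 10.2 CPM in WT, and 5 erythroid markers summed to at most 24.1 CPM in either genotype. The 8 myeloid markers summed to 63.3 to 142 CPM in p52Ki and 30.1 to 81.9 CPM in WT, with S100a8 and S100a9 at 0 in all libraries. Among them Lyz2 was higher in every p52Ki library, at 28.5 ± 21.5 CPM against 7.52 ± 4.17 CPM in WT. It did not pass (edgeR adjusted p = 0.0685). Csf1r, at 31.4 ± 3.31 CPM in p52Ki and 26.0 ± 14.5 CPM in WT, overlapped between genotypes, as did Adgre1 and Cd68. The 5 plasma cell markers summed to 674 to 1256 CPM in p52Ki and 1436 to 1894 CPM in WT. Most of the difference in the plasma cell sum was Jchain, the joining chain of secreted antibodies, at 562.2 ± 202.2 CPM in p52Ki and 1252 ± 194.0 CPM in WT (edgeR adjusted p = 0.0116). Sdc1, a surface marker of plasma cells, lay the other way, at 6.74 to 37.9 CPM in p52Ki and 0 to 4.84 CPM in WT with no overlap, and did not pass (edgeR adjusted p = 0.0762). Their part in the results was not tested. In bulk samples such as these, fewer cells of a type and less RNA per cell cannot be told apart.

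Summed over the large subunit, the 48 Mrpl genes stood at 2218, 2616, 2151, 2484 and 3086 CPM in p52Ki replicates 1 to 5, against 2598, 2594, 2882 and 2933 CPM in WT replicates 1 to 4. 3 p52Ki libraries lay below every WT library, p52Ki replicate 2 lay just above the lowest 2, and p52Ki replicate 5 lay above all 4. The means were 2511 ± 373 CPM in p52Ki and 2752 ± 181 CPM in WT (SD, n = 5 and 4), a log2 ratio of -0.13. Without p52Ki replicate 5 the log2 ratio was -0.22. The 29 Mrps genes summed to 1318, 1380, 1197, 1331 and 1444 CPM in p52Ki, against 1227, 1343, 1552 and 1495 CPM in WT. These ranges overlapped, with means of 1334 ± 91.2 CPM in p52Ki and 1404 ± 148 CPM in WT and a log2 ratio of -0.07, whose sign turned with CPM on unscaled library sizes (0.02). The ratio of the Mrpl sum to the Mrps sum was 1.88 ± 0.167 in p52Ki and 1.97 ± 0.110 in WT, a difference smaller than the spread between libraries. All 77 genes together took 0.393% of the counts in p52Ki and 0.400% in WT.

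Genes of nuclear DNA replication in the same libraries were lower in p52Ki. Of 24 S phase genes, such as the helicase subunits Mcm2, Mcm5 and Mcm7, 18 were called lower and 0 higher, with a median log2 fold change of -0.95. Their summed level was 3645 to 6893 CPM in p52Ki and 8900 to 10890 CPM in WT, with no overlap. With single libraries left out the count called lower was 9 to 19 and the median -1.11 to -0.85: 9 without WT replicate 1, WT replicate 4 or p52Ki replicate 3, 10 without WT replicate 3 or p52Ki replicate 5, and 11 without p52Ki replicate 1. The proteins of the cytosolic ribosome, which makes all nuclear-encoded proteins, had 84 genes in the count table, of which 77 were tested. 1 of these was called lower (1.30%, against 4.04% of all genes tested) and 0 higher, with a median of 0.03. That gene was Rpl4, at 2015 ± 301 CPM in p52Ki and 2882 ± 274 CPM in WT (log2 fold change -0.52 ± 0.13 SE, edgeR adjusted p = 0.0292). Leaving out WT replicate 1, 3 or 4, or p52Ki replicate 1, 3 or 5, ended the call of Rpl4 (largest adjusted p 0.0865).

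**Figure D2:**
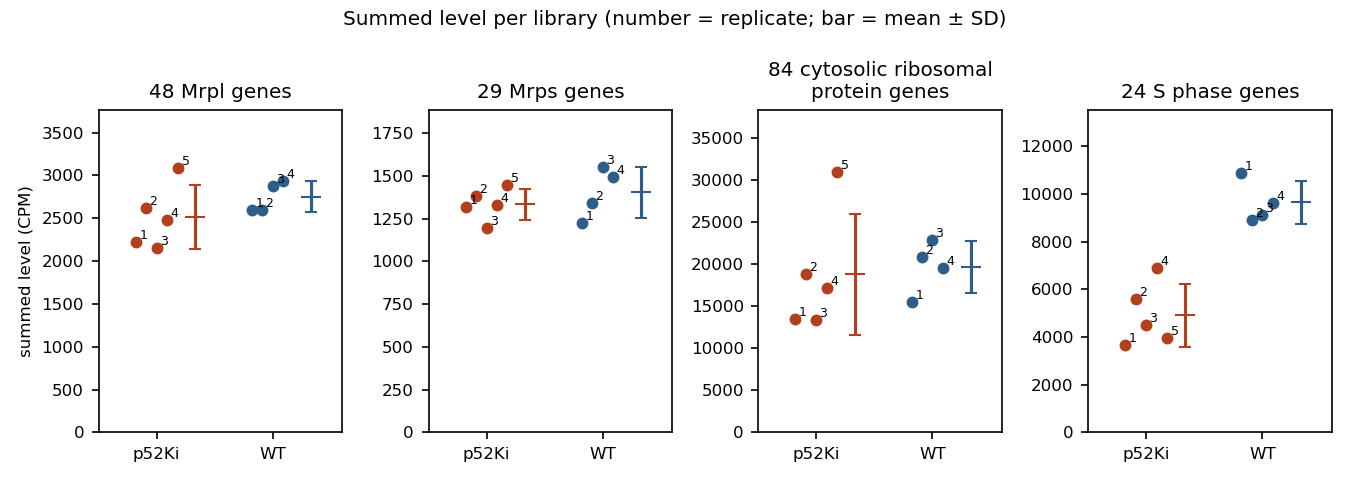
Summed level in CPM (y axis, from 0) of 48 Mrpl genes, 29 Mrps genes, 84 cytosolic ribosomal protein genes and 24 S phase genes in each library, p52Ki left and WT right. Points are libraries numbered by replicate and bars are the mean ± SD (n = 5 and 4), and of the 4 sums only that of the S phase genes has no overlap between genotypes.

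p52Ki replicate 5, the library of lowest depth, stood apart for this gene set. It was the highest of the 5 p52Ki libraries for 43 of the 77 genes, while p52Ki replicates 1 and 3 were the lowest for 27 and 26 of them. Its 77 genes summed to 4530 CPM, above the other p52Ki libraries (3348 to 3995 CPM) and above the WT libraries (3825 to 4433 CPM). The median of its genes was 0.34 above the WT mean on the log2 scale, whereas the other p52Ki libraries had medians of -0.27 to -0.07. Cytosolic ribosomal protein genes were also highest there, at 30950 CPM against 13340 to 18870 CPM in the other p52Ki libraries. Without p52Ki replicate 5 the median log2 fold change of the 77 genes was -0.08, and 0 were called. The part that depth plays in this was not tested.

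Level and difference were related across the set, in part through 1 library. The Spearman correlation across the 77 genes between the log2 of the mean level and the log2 fold change was -0.46, beside -0.21 across all 12849 genes, and the genes of 1 set share their libraries and are not independent. Without p52Ki replicate 5 the correlation across the 77 genes was -0.24, and without any other single library it was -0.52 to -0.40. The 25 genes of lowest level (6.72 to 34.4 CPM) had a median log2 fold change of 0.16, the 26 in the middle (35.3 to 54.5 CPM) -0.03, and the 26 of highest level (55.9 to 173 CPM) -0.18. All genes tested in those 3 ranges had medians of 0.11, 0.00 and -0.08, and 13.9% of them were called in the highest range, where 1 of the 26 was. The 25 genes of lowest level summed to 526.6, 569.3, 496.6, 597.1 and 899.7 CPM in p52Ki, against 548.0, 573.1, 629.1 and 556.0 CPM in WT. p52Ki replicate 5 stood far above all other libraries, and without it the sign turned, with the log2 ratio of the means at -0.07 in place of 0.10 and the median log2 fold change at -0.06. The 26 genes of highest level summed to 1932, 2203, 1916, 2103 and 2218 CPM in p52Ki, against 2258, 2301, 2470 and 2630 CPM in WT. Every p52Ki library was below every WT library, with means of 2074 ± 144 CPM in p52Ki and 2415 ± 170 CPM in WT and a log2 ratio of -0.22 (-0.24 without p52Ki replicate 5). On unscaled library sizes the ranges overlapped, at 1985 to 2273 CPM in p52Ki and 2167 to 2531 CPM in WT. Transcript length and GC content had weaker correlations with the fold change across the 77 genes, of -0.12 and -0.06.

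**Figure D3:**
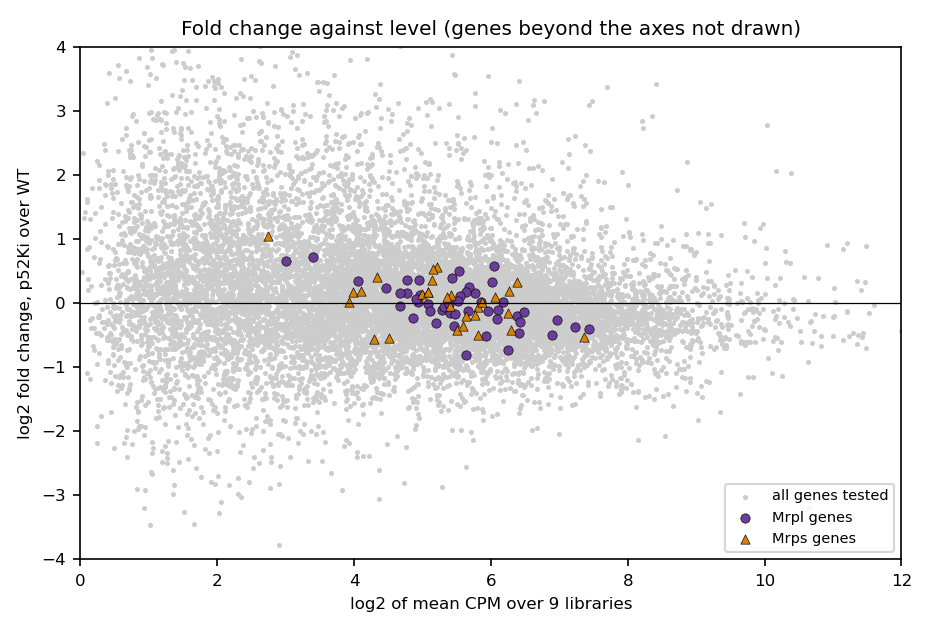
Log2 fold change (p52Ki over WT, y axis) against the log2 of the mean CPM over 9 libraries (x axis) for all genes tested (grey), the 48 Mrpl genes (circles) and the 29 Mrps genes (triangles). The genes of the set lie in a narrow band around 0, with a standard deviation of 0.35. It was 1.12 for all genes and 0.85 for the 8832 genes in the same range of level. Genes of the set of higher level sit lower, less so without p52Ki replicate 5 (Spearman correlation -0.24 against -0.46).

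Among the large subunit proteins of bacterial descent, Mrpl3, whose bacterial homologue L3 reaches towards the peptidyl transferase centre, had the smallest p. It stood at 32.5, 60.8, 63.3, 73.2 and 64.5 CPM in p52Ki, against 129.2, 104.6, 81.8 and 76.9 CPM in WT. Every p52Ki library was below every WT library, although the gap between p52Ki replicate 4 and WT replicate 4 was narrow. The log2 fold change was -0.74 ± 0.25 (SE), with a 95% interval of -1.29 to -0.18, and did not pass (edgeR adjusted p = 0.103). Mrpl4, whose bacterial homologue L4 lines the exit tunnel of the nascent chain, was at 124.3, 129.1, 127.7, 165.8 and 211.8 CPM in p52Ki, against 226.5, 178.2, 173.6 and 221.5 CPM in WT. 4 of the 5 p52Ki libraries were below the WT range, and p52Ki replicate 5 lay within it (log2 fold change -0.40, interval -0.81 to 0.015, edgeR adjusted p = 0.252).

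Other bacterial-type proteins of the large subunit showed no difference that passed. Mrpl18 had the highest level per kilobase of exon in the set, 95 CPM per kb in p52Ki and 123.7 CPM per kb in WT, with a log2 fold change of -0.38 (edgeR adjusted p = 0.365). Mrpl28 followed, at 83.2 CPM per kb in p52Ki and 100.1 CPM per kb in WT (log2 fold change -0.27, edgeR adjusted p = 0.446). Mrpl12, the counterpart of the bacterial stalk protein L7/L12 that recruits translation factors, was at 77.9 ± 14.4 CPM in p52Ki and 95.4 ± 23.4 CPM in WT (log2 fold change -0.29, interval -0.76 to 0.17). Mrpl33 had the lowest level per kilobase, 1.74 CPM per kb in p52Ki and 1.06 CPM per kb in WT, over 7326 exon bases. Length here is that of all annotated exons merged, so levels per kilobase depend on the annotation. In CPM, Mrpl33 stood at 12.8 in p52Ki and 7.76 in WT, above Mrps6. It had the largest positive estimate among Mrpl genes, 0.72, with a wide interval of -0.44 to 1.88. Mrpl14 was at 18.4 ± 10.2 CPM in p52Ki and 14.5 ± 4.82 CPM in WT (log2 fold change 0.34, interval -0.63 to 1.31). Its sign turned without p52Ki replicate 5.

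Mrpl34 showed how 1 library could decide a value. It was at 11, 19.8, 9.53, 10.3 and 67.8 CPM in p52Ki, against 18.1, 21.2, 20.6 and 19.9 CPM in WT. 3 p52Ki libraries were below all WT libraries, p52Ki replicate 2 lay within the WT range and p52Ki replicate 5 was more than 3 times any other library. The log2 fold change was 0.24 with all libraries (interval -1.01 to 1.49) and -0.64 without p52Ki replicate 5. Mrpl34 was named after its values were seen.

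Among the large subunit proteins specific to mitochondria, Mrpl43 was the 1 gene with an unadjusted p under 0.05 and a higher level in p52Ki. Its levels were 84.4, 88.7, 64.6, 53.3 and 96.3 CPM in p52Ki, against 57.2, 63.1, 43.2 and 44.6 CPM in WT. 4 p52Ki libraries were above the WT range and p52Ki replicate 4 lay within it. The log2 fold change was 0.57 ± 0.23 (interval 0.07 to 1.08, edgeR adjusted p = 0.167). Mrpl43 (chromosome 19, 45004829 to 45006442) shares 33.4% of its exon bases with Twnk, the mitochondrial DNA helicase gene on the opposite strand, and the library method does not mark strand, so reads there cannot be told apart. Twnk had a similar estimate, 0.55 (edgeR adjusted p = 0.233).

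Mrpl37 had 107.9, 128.4, 93.2, 89.0 and 81.7 CPM in p52Ki, against 192.3, 114.0, 111.9 and 147.5 CPM in WT. 4 p52Ki libraries were below all WT libraries and p52Ki replicate 2 was above 2 of them (log2 fold change -0.50, interval -0.95 to -0.048, edgeR adjusted p = 0.180). Mrpl44, which carries a ribonuclease III-like fold, was at 38.3, 42.9, 14.4, 59.9 and 30.4 CPM in p52Ki, against 92.0, 35.7, 72.2 and 60.1 CPM in WT. The groups overlapped through WT replicate 2, and the estimate of -0.81, the most negative of the 77 genes, had an interval of -1.64 to 0.026 (edgeR adjusted p = 0.250). Mrpl45, which sits at the exit of the nascent chain tunnel near the inner membrane, was at 72.6 ± 10.1 CPM in p52Ki and 100.3 ± 28.0 CPM in WT (log2 fold change -0.47, edgeR adjusted p = 0.231).

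Mrpl46 and Mrps11 form a pair of genes with start sites 412 bases apart on opposite strands. Mrpl46 was at 51.3 ± 11.1 CPM in p52Ki and 73.2 ± 28.2 CPM in WT (log2 fold change -0.51, interval -1.13 to 0.10). Mrps11 was at 44.5 ± 9.93 CPM in p52Ki and 40.8 ± 16.3 CPM in WT (log2 fold change 0.12, interval -0.58 to 0.82), and its sign turned without WT replicate 1. Neither passed, and the exons of the pair overlap by 12.2% of Mrpl46 and 7.97% of Mrps11. Mrpl52, among the genes of lowest level, was at 9.60 ± 6.99 CPM in p52Ki and 6.09 ± 2.44 CPM in WT, with an interval of -0.86 to 2.17. Mrpl58, which acts as a peptidyl-tRNA hydrolase on stalled ribosomes, was at 48.5 ± 15.5 CPM in p52Ki and 44.8 ± 3.02 CPM in WT (log2 fold change 0.11, interval -0.46 to 0.69). Its sign turned without p52Ki replicate 2 and in limma-voom.

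In the small subunit, Mrps7 (chromosome 11, 115603925 to 115608036) encodes the homologue of bacterial S7, a protein of the head of the subunit that in bacteria nucleates the folding of part of the ribosomal RNA. It was among the most abundant genes of the set, at 66.6 CPM per kb in p52Ki and 95.9 CPM per kb in WT. Its levels were 162.7, 140.7, 128.7, 131.8 and 125.8 CPM in p52Ki, against 195.2, 202.5, 188.5 and 208.9 CPM in WT. All p52Ki libraries were below all WT libraries. The means were 137.9 ± 15.0 CPM in p52Ki and 198.8 ± 8.84 CPM in WT (SD, n = 5 and 4), and the log2 fold change was -0.53 ± 0.14 (SE) with a 95% interval of -0.82 to -0.23 and an edgeR adjusted p of 0.0326.

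The call of Mrps7 stood near the threshold. It ended in 8 of the 9 fits without 1 library, with edgeR adjusted p from 0.0626 to 0.101, and held only without p52Ki replicate 1 (0.0334). It also ended with no filter on low counts (0.0816) and after a correction for GC content and length (0.0712), while DESeq2 gave an adjusted p of 0.00521. The estimate stayed negative in all of these, between -0.54 and -0.45 where the call ended. 11.9% of the exon bases of Mrps7 overlap genes on the opposite strand, Gga3 at its 5′ end and Mif4gd at its 3′ end. Mif4gd was itself lower in every p52Ki library (256 to 335 CPM in p52Ki and 360 to 509 CPM in WT; log2 fold change -0.50 ± 0.15, edgeR adjusted p = 0.0600). How many reads the overlap moves between the genes was not tested. Of all genes tested, 7.30% had every p52Ki library above every WT library and 6.53% below. In the set, 1 gene was above (Mrps10) and 2 were below (Mrps7 and Mrpl3).

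**Figure D4:**
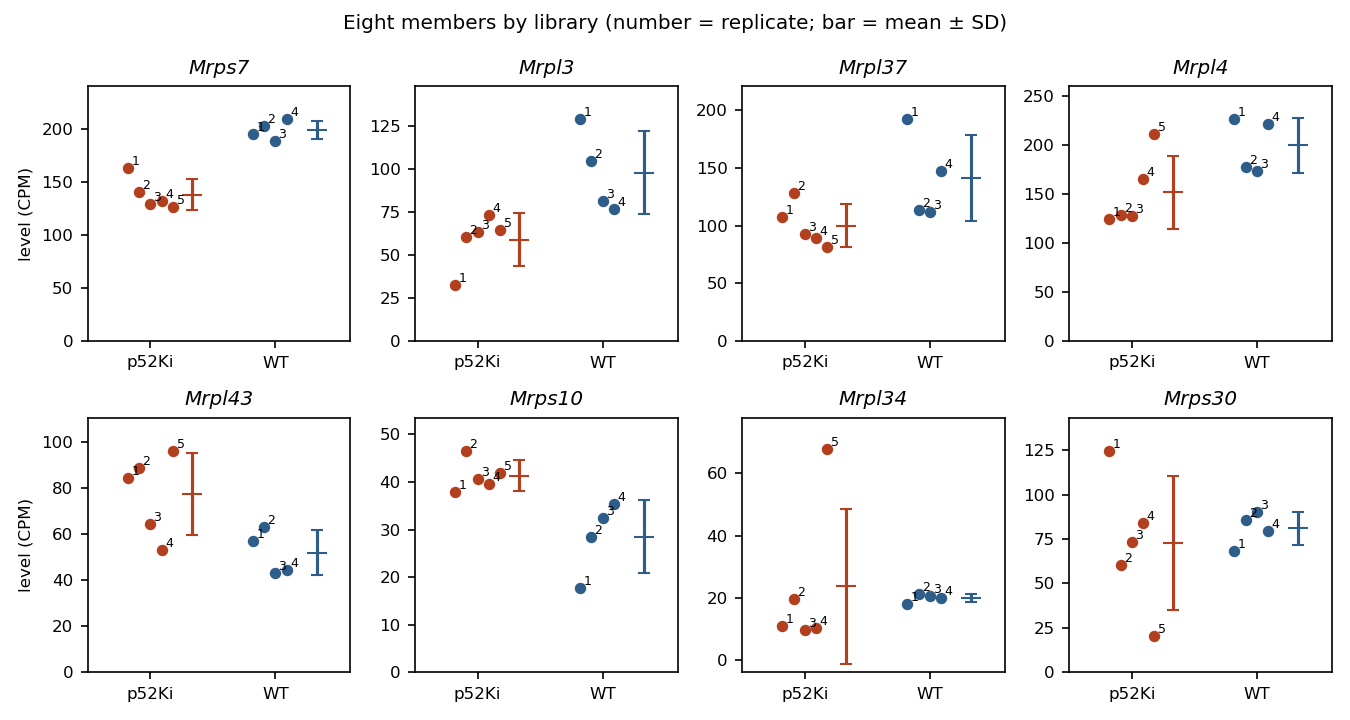
Level in CPM (y axis) of 8 genes of the set in each library, p52Ki left and WT right. Points are libraries numbered by replicate and bars are the mean ± SD (n = 5 and 4). Mrps7 and Mrpl3 have all p52Ki libraries below all WT libraries and Mrps10 above, while p52Ki replicate 5 is far above the rest in Mrpl34 and p52Ki replicates 1 and 5 are the ends of the range in Mrps30.

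Mrps10, a head protein homologous to bacterial S10, was at 37.9, 46.6, 40.7, 39.5 and 41.9 CPM in p52Ki, against 17.7, 28.5, 32.4 and 35.4 CPM in WT. Every p52Ki library was above every WT library, by little over WT replicate 4, and the log2 fold change of 0.53 ± 0.26 did not pass (interval -0.031 to 1.10, edgeR adjusted p = 0.261). Mrps12, the homologue of bacterial S12 at the decoding centre, was at 53.4, 50.3, 27.5, 37.2 and 47.2 CPM in p52Ki, against 22.1, 29.3, 38.3 and 27.1 CPM in WT. 3 p52Ki libraries were above the WT range, and the other 2 lay within it (log2 fold change 0.56, interval -0.046 to 1.17, edgeR adjusted p = 0.273). Mrps6, homologous to bacterial S6, had the largest positive estimate of the 77 genes and the lowest level. It was at 12.3, 12.9, 4.85, 7.2 and 6.3 CPM in p52Ki, against 3.15, 3.6, 2.84 and 7.3 CPM in WT. The groups overlapped through WT replicate 4, the log2 fold change was 1.04 with an interval of -0.28 to 2.36 (edgeR adjusted p = 0.360), and 19.9% of its exon bases are shared with Slc5a3 and Gm49711 on the same strand.

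Proteins of the small subunit that are specific to mitochondria had estimates of both signs, and none passed. Mrps27, which has pentatricopeptide repeats, was at 47.2 ± 11 CPM in p52Ki and 66.8 ± 18.2 CPM in WT (log2 fold change -0.50, edgeR adjusted p = 0.299). Mrps22 was at 16.1 ± 7.54 CPM in p52Ki and 23.8 ± 6.61 CPM in WT, and Mrps31 at 18.9 ± 7.11 CPM in p52Ki and 27.5 ± 14.9 CPM in WT. Their log2 fold changes of -0.56 and -0.54 had intervals of -1.54 to 0.42 and -1.55 to 0.46. Mrps26 was at 91.9 ± 17.4 CPM in p52Ki and 72.8 ± 17.0 CPM in WT (log2 fold change 0.34, interval -0.15 to 0.82). Mrps28, of bacterial descent as the counterpart of S1, was at 16.6 ± 4.64 CPM in p52Ki and 14.8 ± 6.52 CPM in WT (log2 fold change 0.16, interval -0.73 to 1.06), and its sign turned without WT replicate 1. By descent, the 48 genes with a bacterial homologue had a median log2 fold change of 0.05 with 1 called, and the 28 specific to mitochondria a median of -0.05 with 0 called.

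Mammals have 3 paralogs of bacterial S18, which take different places in the ribosome. Mrps18a, found in the large subunit despite its name, was at 60.7, 67.7, 77.4, 72.9 and 61.7 CPM in p52Ki, against 74.8, 78.0, 93.0 and 118.1 CPM in WT. 4 p52Ki libraries lay below all WT libraries and p52Ki replicate 3 lay between WT replicates 1 and 2 (log2 fold change -0.42, interval -0.83 to -0.0031, edgeR adjusted p = 0.230). Mrps18b was at 68.6 ± 14.7 CPM in p52Ki and 64.4 ± 8.27 CPM in WT (log2 fold change 0.091, interval -0.37 to 0.55), and its sign turned without p52Ki replicate 2. Mrps18c was at 18.1 ± 7.69 CPM in p52Ki and 15.8 ± 7.36 CPM in WT (log2 fold change 0.19, interval -0.76 to 1.14), and its sign turned without p52Ki replicate 5. Differences between the 3 paralogs were not tested.

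2 further names do not match the place of their products. Mrps30 is a protein of the large subunit, and its level ranged widely over the p52Ki libraries, at 124.6, 60.5, 73.5, 84 and 20.4 CPM, against 68.4, 85.5, 90.0 and 79.8 CPM in WT. The highest and the lowest library both belonged to p52Ki (replicates 1 and 5), and the log2 fold change was -0.15 (interval -0.98 to 0.67), with a sign that turned without p52Ki replicate 5. Mrps36 is now regarded as a subunit of the 2-oxoglutarate dehydrogenase complex and not of the ribosome. It was at 15.3 ± 9.5 CPM in p52Ki and 15.1 ± 6.62 CPM in WT (log2 fold change 0.014, interval -1.08 to 1.11), and its sign turned in limma-voom and after the GC and length correction. With the genes placed by structure, 50 belong to the large subunit and 26 to the small, with median log2 fold changes of -0.05 and 0.11 and with 0 and 1 called.

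Mrpl53, the 1 protein-coding name that was not tested, had 0 counts in all 9 libraries, which allows a level of up to 0.1 CPM in p52Ki and 0.102 CPM in WT (3 counts over the summed libraries of a genotype, counting error only). 88.0% of its exon bases overlap Gm42688 and Ccdc142os in GENCODE M21. The sources used here do not say how reads shared by overlapping genes were counted, so a value of 0 does not show that Mrpl53 is silent. 32 of the 77 genes overlap exons of another gene, 6 of them by more than 25%. Mrps34 (77.8%) and Mrps25 (69.8%) overlapped most, and their log2 fold changes were -0.049 and 0.011.

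33 of the 77 genes (42.9%) have the start site of a protein-coding gene within 1000 bases on the opposite strand, against 18.6% of the 10326 protein-coding genes tested. Of the 32 partners that were tested, 2 were called lower and 0 higher (6.25%), against 8.53% of all genes tested (4.04% lower and 4.49% higher). Tcp1, a subunit of the cytosolic chaperonin beside Mrpl18, had a log2 fold change of -0.60 (edgeR adjusted p = 0.0296). Ncapd2, a condensin subunit beside Mrpl51, had -1.37 (edgeR adjusted p = 0.0260), while Mrpl51 itself had -0.36 (edgeR adjusted p = 0.458). Leaving out WT replicate 1, 3 or 4, or p52Ki replicate 1 or 3, ended the call of Tcp1 (largest adjusted p 0.0879), as did the GC and length correction (0.0605). Leaving out WT replicate 1 or 4, or p52Ki replicate 1, 2, 3 or 5, ended that of Ncapd2 (largest adjusted p 0.0748).

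The ribosomal RNAs of the particle come from the mitochondrial genome. mt-Rnr2, the large rRNA, was at 2082, 1552, 2209, 2010 and 3401 CPM in p52Ki, against 2361, 2672, 3241 and 1698 CPM in WT. mt-Rnr1, the small rRNA, was at 52.1, 18.9, 29.2, 41.2 and 108.8 CPM in p52Ki, against 43.8, 84.5, 53.9 and 29.7 CPM in WT. The genotypes overlapped for both, with p52Ki replicate 5 highest, and the log2 fold changes were -0.15 (interval -0.64 to 0.34, edgeR adjusted p = 0.787) and -0.085 (interval -1.10 to 0.93, edgeR adjusted p = 0.951). Their signs turned when single libraries were left out. cDNA synthesis by this method starts at poly(A), so these counts are of the tailed fraction of the rRNA.

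The 13 mitochondrial mRNAs, the templates of this ribosome, had a median log2 fold change of 0.00 with 0 called, against 8.53% of all genes tested. 2 of them, the most abundant, were lower at an unadjusted p under 0.05 with no overlap between genotypes. Of all genes tested, 6.53% had every p52Ki library below every WT library, and 10.6% were lower at an unadjusted p under 0.05. mt-Co1, a subunit of cytochrome oxidase, was at 4472 to 6172 CPM in p52Ki and 6598 to 8277 CPM in WT (log2 fold change -0.40 ± 0.12, edgeR adjusted p = 0.0564). mt-Cytb, of complex III, was at 4805 to 6307 CPM in p52Ki and 6360 to 8602 CPM in WT (log2 fold change -0.40 ± 0.13, edgeR adjusted p = 0.0771).

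5 proteins of the mitochondrial ribosome that carry other symbols also did not pass, and their median log2 fold change was -0.11. Dap3, a small subunit GTP-binding protein known also from cell death, was at 75.4, 104.6, 66.5, 100.7 and 97.1 CPM in p52Ki, against 114.8, 110.0, 110.1 and 127.0 CPM in WT. Every p52Ki library lay below every WT library (log2 fold change -0.38 ± 0.18, interval -0.77 to 0.011, edgeR adjusted p = 0.248). The others, Ptcd3, Chchd1, Aurkaip1 and Gadd45gip1, had log2 fold changes of -0.23 to 0.23.

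Of 15 mitochondrial translation factors 1 was called, lower, and 0 higher (median log2 fold change -0.14). The share called was 6.67%, against 8.53% of all genes tested. Tufm, the elongation factor that brings aminoacyl-tRNA to the ribosome, was at 100.6, 79.2, 100.6, 129.5 and 76.5 CPM in p52Ki, against 166.4, 143.6, 143.3 and 200.3 CPM in WT. All p52Ki libraries were below all WT libraries, with means of 97.3 ± 21.3 CPM in p52Ki and 163 ± 26.9 CPM in WT and a log2 fold change of -0.75 ± 0.19 (interval -1.17 to -0.33, edgeR adjusted p = 0.0325). The call of Tufm held without WT replicate 2 and without p52Ki replicate 4 and ended in the other 7 fits without 1 library, at adjusted p up to 0.108. It also ended with no filter (0.0521) and after the GC and length correction (0.0529). The initiation factors Mtif2 and Mtif3 and the elongation factors Tsfm, Gfm1 and Gfm2 had log2 fold changes of -0.27 to 0.14 and did not pass.

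The next 3 lists had 0 called each, against 8.53% of all genes tested. The 20 mitochondrial tRNA synthetases and amidotransferase subunits had a median log2 fold change of -0.22 with 0 called. Lars2, the leucyl-tRNA synthetase, had the estimate -0.64 (interval -1.19 to -0.094, edgeR adjusted p = 0.154), and Gatc, a subunit of the amidotransferase, 0.79 (interval 0.13 to 1.46, edgeR adjusted p = 0.147). The 31 factors of ribosome assembly had a median of 0.06 with 0 called, among them Rbfa, which matures the small subunit, at 42.7 ± 17.7 CPM in p52Ki and 27.4 ± 4.48 CPM in WT (edgeR adjusted p = 0.267). The 19 genes of mitochondrial transcription and RNA handling had a median of -0.07 with 0 called. In that list 2 genes were higher in every p52Ki library at an unadjusted p under 0.05. Of all genes tested, 7.30% had every p52Ki library above every WT library, and 10.8% were higher at an unadjusted p under 0.05. Tfb2m, a factor that starts mitochondrial transcription, was at 29.2 ± 11.1 CPM in p52Ki and 11.9 ± 3.97 CPM in WT (log2 fold change 1.29 ± 0.39, edgeR adjusted p = 0.0638). Mterf2 was at 23.8 ± 4.60 CPM in p52Ki and 8.0 ± 6.58 CPM in WT (log2 fold change 1.57 ± 0.56, edgeR adjusted p = 0.117). Tfb2m was called higher with DESeq2 (DESeq2 adjusted p = 0.013), and with edgeR at 10 CPM in 4 libraries (0.0463) and after the GC and length correction (0.0496). Mterf2 was called higher with DESeq2 (0.0398) and with limma-voom (0.0346). Neither was called under the other alternatives. Slirp, which stabilises mitochondrial mRNAs with Lrpprc, was lower in every p52Ki library (50.2 ± 6.99 CPM in p52Ki and 69.1 ± 3.72 CPM in WT, edgeR adjusted p = 0.170). The genes named here from the lists without a call were chosen after their values were seen.

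**Figure D5:**
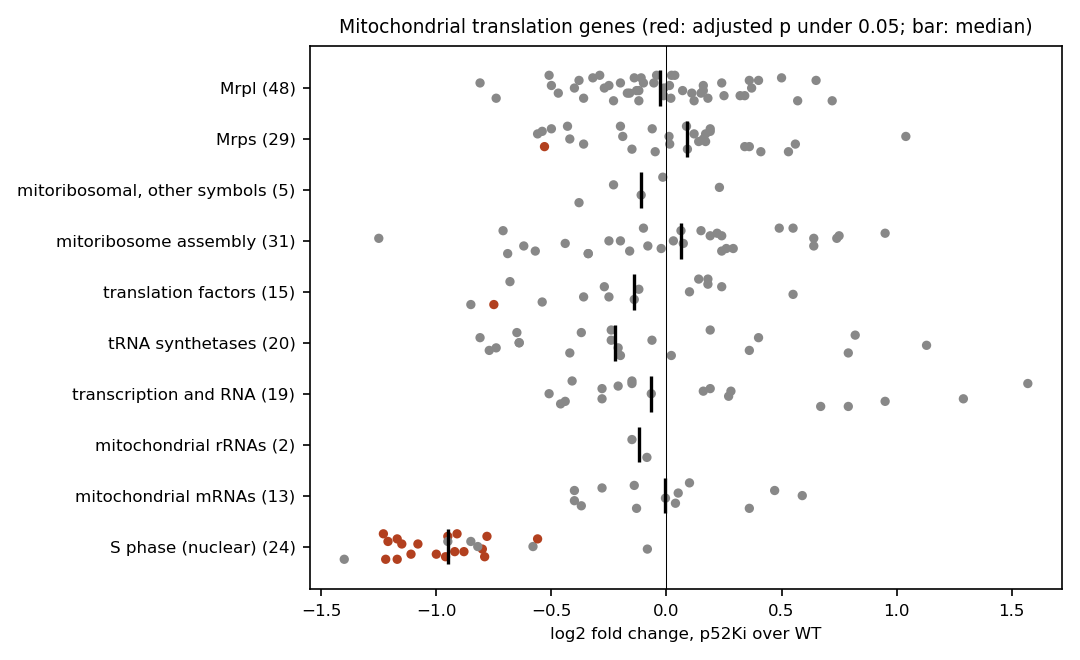
Log2 fold change (p52Ki over WT, x axis) of every gene tested, 1 point each, in the Mrpl and Mrps genes and in related lists by role, with the number of genes in brackets and a bar at the median. Red points passed an adjusted p of 0.05: Mrps7, Tufm and 18 of the 24 S phase genes, whose median of -0.95 lies apart from the medians of the mitochondrial lists (-0.22 to 0.09).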

How the data were processed

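Spleen B cells of the mouse were profiled by RNA-seq, in 5 p52Ki and 4 WT libraries. Per the labels' protocols, low-input RNA was made into full-length cDNA by SMART-Seq v2, which does not mark strand and carries no molecular identifiers. The submitters' processing notes name HISAT2 2.1.0, SAMtools 1.8, Subread 1.6.2 with featureCounts, and build GRCm38. An annotation release and a rule for reads shared by genes were not given in the sources used here. Raw counts were deposited by the authors for 55536 genes, and log2 CPM values for 12849 genes. Those deposited log2 values equal edgeR's log CPM of those counts (TMM factors, prior count 2), with a largest difference of 4.97e-14.

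The 12849 genes kept by filterByExpr were tested on the counts in R 4.3.3 with edgeR 4.0.16 (TMM, robust quasi-likelihood F test, no covariate, two-sided, Benjamini-Hochberg over all 12849, threshold 0.05). SE is the log2 fold change divided by the root of F, and 95% intervals use the t quantile at the moderated degrees of freedom, so they include the spread between libraries, whereas the limit given for 0 counts covers counting error only. The procedure was tested on simulated data. The common biological coefficient of variation was 0.567. Alternatives were DESeq2 1.42.0 and its size factors, limma 3.58.1 (voom with quality weights), no filter, 10 CPM in 4 libraries, the replicate number as a block, GC and length offsets, and leaving out each library. For summed levels and for genes grouped by level, the last was added after seeing the data, as were other library sizes for the latter groups. One marker gene is not reported here. Positions are from GENCODE M21 (GRCm38), which holds all 55536 identifiers.

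The genes and lists were chosen with earlier results of these data known, so lists are described by counts and medians, with no test of a list. Genes named are every one called, and in each subunit the 6 of smallest p, the 3 of largest change in each direction, the 3 of highest and the 3 of lowest level, with Mrpl12, Mrpl58, Mrps12, Mrps18a, Mrps18b, Mrps18c, Mrps30, Mrps36 and both mitochondrial rRNAs named whatever their result.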

Additional observations from a re-analysis of the deposited data

Results flagged for a closer look

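In 13 of 162 groups of libraries (each of the 77 genes, the Mrpl and Mrps sums and both mitochondrial rRNAs, in each genotype), the highest or lowest library stood far from the rest of its genotype. Chance gives such a gap in about 1 of 20 groups when values are independent and normally distributed. The genes here share their libraries, so the groups are not independent and 13 of 162 cannot be set against that share. The share of such groups over all genes tested was not computed.

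7 of the 13 were p52Ki replicate 5 standing above the other p52Ki libraries: Mrpl14 at 35.6 CPM, Mrpl20 at 61.0 CPM, Mrpl23 at 50.4 CPM, Mrpl30 at 76.5 CPM, Mrpl34 at 67.8 CPM, Mrps14 at 59.7 CPM and Mrps21 at 49.1 CPM. The same library was the least deep of the 9. For Mrpl9, p52Ki replicate 2 stood below the others at 35.3 CPM.

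In WT, replicate 2 stood above the others for Mrpl24 (71.4 CPM) and below them for Mrps34 (30.2 CPM). WT replicate 3 stood above for Mrps22 (33.7 CPM), and WT replicate 4 above for Mrps6 (7.30 CPM) and below for Mrps9 (30.3 CPM).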

How the results depend on the processing

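The count of Mrpl genes called was 0 under every alternative run. The count of Mrps genes called, 1, was 0 with no filter on low counts and after the GC and length correction, and 0 to 1 with single libraries left out. The count over related mitochondrial lists, 1, was 0 with no filter, 2 at 10 CPM in 4 libraries, 3 with DESeq2, 2 with limma-voom and 0 to 1 with single libraries left out. After the GC and length correction it stayed at 1, but the gene was Tfb2m, higher, in place of Tufm, lower. The log2 ratios of summed levels moved by less than the spread between libraries (Mrpl -0.22 to -0.08 and Mrps -0.13 to -0.02 with single libraries left out), but the Mrps sign turned on unscaled library sizes (0.02). By level, the ratio with single libraries left out was -0.07 to 0.17 in the 25 genes of lowest level, -0.10 to 0.06 in the middle 26 and -0.25 to -0.18 in the 26 of highest level. Over all genes, 1096 were called, against 625 to 1108 with single libraries left out and 1766 with DESeq2. Without WT replicates 1, 3 or 4 and without p52Ki replicates 1, 3 or 5 the count was 714, 777, 711, 651, 625 and 716.

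Alternatives were followed for 43 single genes, most of which had no call to lose, so the share kept says little about calls. Those of Mrps7 and Tufm ended under most alternatives. Of the 686 values, 611 kept direction and call, 28 lost the call and 47, in 16 genes, changed sign. In limma-voom these were Mrpl23 (-0.085), Mrpl34 (-0.46), Mrpl58 (-0.020), Mrpl9 (-0.017), Mrps36 (-0.27) and Mrps9 (0.043). After the GC and length correction they were Mrps34 (0.064), Mrps36 (-0.16) and Mrps9 (0.014). With single libraries left out, values ran from -0.020 to 0.56 for Mrpl14, -0.22 to 0.33 for Mrpl23, -0.64 to 0.46 for Mrpl34, -0.016 to 0.26 for Mrpl58, -0.022 to 0.16 for Mrpl9, -0.12 to 0.36 for Mrps11, -0.0014 to 0.22 for Mrps18b, -0.067 to 0.48 for Mrps18c, -0.057 to 0.66 for Mrps21, -0.061 to 0.46 for Mrps28, -0.44 to 0.10 for Mrps30, -0.19 to 0.025 for Mrps34, -0.40 to 0.29 for Mrps36, -0.25 to 0.033 for Mrps9, -0.56 to 0.23 for mt-Rnr1 and -0.32 to 0.021 for mt-Rnr2. The cause was not tested.

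Replicate numbers in the titles gave no sign of pairing: deviations of same-numbered p52Ki and WT libraries correlated at -0.042, -0.0172, -0.0131 and -0.00898. No WT library correlated best with the p52Ki library of its own number. Such correlations cannot show that same-numbered libraries were handled apart. The fit with the replicate block used the libraries whose number occurs in both genotypes, and so left out p52Ki replicate 5. In it 108 genes were called over all (77.8% of them higher). Without the block, 716 were called over the same libraries (57.8% higher) and 1096 over all 9 (52.6% higher). The block fit called 0 Mrpl, 0 Mrps, 0 in related lists and 1 of the 24 S phase genes, lower (median log2 fold change -0.94). Without the block, 10 S phase genes were called lower over the same libraries and 18 over all 9. The adjusted p with the block was 0.178 for Mrps7, 0.102 for Tufm, 0.132 for Rpl4, 0.13 for Tcp1 and 0.0995 for Ncapd2, so that each of these calls ended. Of these calls, only that of Tcp1 held when p52Ki replicate 5 was left out without a block (edgeR adjusted p = 0.0486). The sign turned for Mrpl23 (-0.13), Mrpl34 (-0.70), Mrpl58 (-0.041), Mrpl9 (-0.030), Mrps30 (0.056), Mrps36 (-0.36) and Mrps9 (0.067). Among these, Mrpl23, Mrpl34 and Mrps30 also changed sign without a block when p52Ki replicate 5 was left out.

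Limits are those of 9 libraries of low-input RNA without molecular identifiers: the median SE of the log2 fold change was 0.40 in the 25 genes of lowest level and 0.22 in the 26 of highest. The labels tie no library to a mouse, and the depth differs between genotypes, so depth and genotype cannot be told apart.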

Other observations

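Low counts were present for 4 of the 5 processed copies of these genes that lie elsewhere in the genome. Mrpl23-ps1 was at 1.5 ± 0.951 CPM in p52Ki and 1.58 ± 1.08 CPM in WT (SD, n = 5 and 4), against 30.8 ± 11.4 CPM in p52Ki and 30.5 ± 13.1 CPM in WT for Mrpl23. Mrps36-ps1, Mrps36-ps2 and Mrpl48-ps had 10, 3 and 1 counts in p52Ki and 8, 1 and 0 counts in WT, and Mrps36-ps3 had 0 counts in every library. Such copies can take reads of their parent genes, and how many was not tested.

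Levels of these genes varied less between libraries of a genotype than those of all genes tested in the same outer range of level. The genes were not matched within that range, and the median level was 44.4 CPM in the set and 35.7 CPM over all genes there. Their median coefficient of variation was 26.1% in p52Ki and 24.5% in WT, beside 30.6% in p52Ki and 32.8% in WT for the 8832 genes in the same range of level. The exons of the 77 genes are short, with a median total of 2533 bases against 3805 bases for all genes tested.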
